A study of Mus musculus with 6 samples.

Results

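The proteasome subunits and their dedicated partners were followed in 3T3-L1 adipocytes that carried an adenovirus with *LacZ* or with *Lmo3*. Every gene symbol made of Psma, Psmb, Psmc, Psmd, Psme, Psmf or Psmg and a number was taken, which gave 48 of the 24421 gene symbols in the count tables. 46 of them had enough counts to be tested. *Psma8* had a count of 0 in all 6 libraries, and *Psmb11* had 0 to 2 counts per library. 3T3-L1 is a mouse fibroblast line that can be differentiated into fat cells in culture. In both groups the cells were differentiated with insulin, TZD, Dex and IBMX and received 100 pfu of virus per cell on day 7. The control virus carried *LacZ* (AdLacZ, 3 libraries) and the other a codon-optimized mouse *Lmo3* (Ad*Lmo3*, 3 libraries), and RNA was taken 3 days (72 h) later. All cells were of 1 line and all were infected, so that the comparison is between these viruses. It was asked whether any proteasome gene differed between the viruses, from the barrel-shaped core to the parts that bind, open and assemble it.

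The proteasome degrades proteins tagged with ubiquitin. Its core is a stack of rings, in which alpha subunits form the gate and beta subunits hold the cutting sites. A regulatory cap sits on the core: its base unfolds the substrate with ATPases, and its lid removes the ubiquitin chain. Under interferon, cells exchange the cutting subunits *Psmb5*, *Psmb6* and *Psmb7* for *Psmb8*, *Psmb9* and *Psmb10*, which makes the immunoproteasome and alters the peptides offered on MHC class I. In brown adipocytes the transcription factor *Nfe2l1* is known to keep proteasome genes high.

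Sequencing gave 28035639 to 38332335 counts on genes per library, of which the proteasome genes took 0.528% to 0.607%. No library held a read of *Lmo3* (count 0), and 3 reads would stand for 0.0783 to 0.107 CPM (reads scaled to a library of 1e+06 reads), so the labels could not be checked through this gene. Of 8 adipocyte markers, 7 were higher in Ad*Lmo3* at an adjusted p-value under 0.05 (edgeR's quasi-likelihood test), among them *Adipoq*, and none of 6 preadipocyte markers passed (0 at an unadjusted p under 0.05). *Dlk1*, which marks preadipocytes, was still present at 849.7 to 1422 CPM. The 7 leukocyte markers summed to 3.07 to 5.84 CPM per library over the 3 that were tested, *Cd3e* was at 0 in all 6 libraries and *Ptprc* had 1 count in 1 library. In such bulk libraries, a change in the share of a cell type and a change of RNA per cell cannot be told apart, and the part of the adipocyte markers' rise in the differences below was not tested.

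Most proteasome genes lay close to the control level, and a single one passed the test. *Psmd8*, a subunit of the lid, fell by 26.1% in Ad*Lmo3*, and no proteasome gene was higher at an adjusted p-value under 0.05. Among all 12766 tested genes 4.28% passed (2.71% higher and 1.57% lower), so that 1 of 46 was close to the background share. The median log2 fold change of the 46 genes was -0.0067, and that of all tested genes was 0.0014, with 20 proteasome genes above 0 and 26 below. At an unadjusted p under 0.05 there were 5 of 46 (*Psmd8*, *Psma1*, *Psmd13*, *Psmb3* and *Psme3*), and 20.6% of all tested genes. DESeq2 called 2 of the 46, *Psmd8* and *Psma1*, and 8.69% of all tested genes. For 40 of the 46 genes the 95% interval of the log2 fold change lay within 0.5 on either side of 0, which is a change of at most 1.41-fold. The genes whose interval reached beyond this limit were *Psma1*, *Psmd8*, *Psme1* and the 3 immune subunits.

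**Figure D1:**
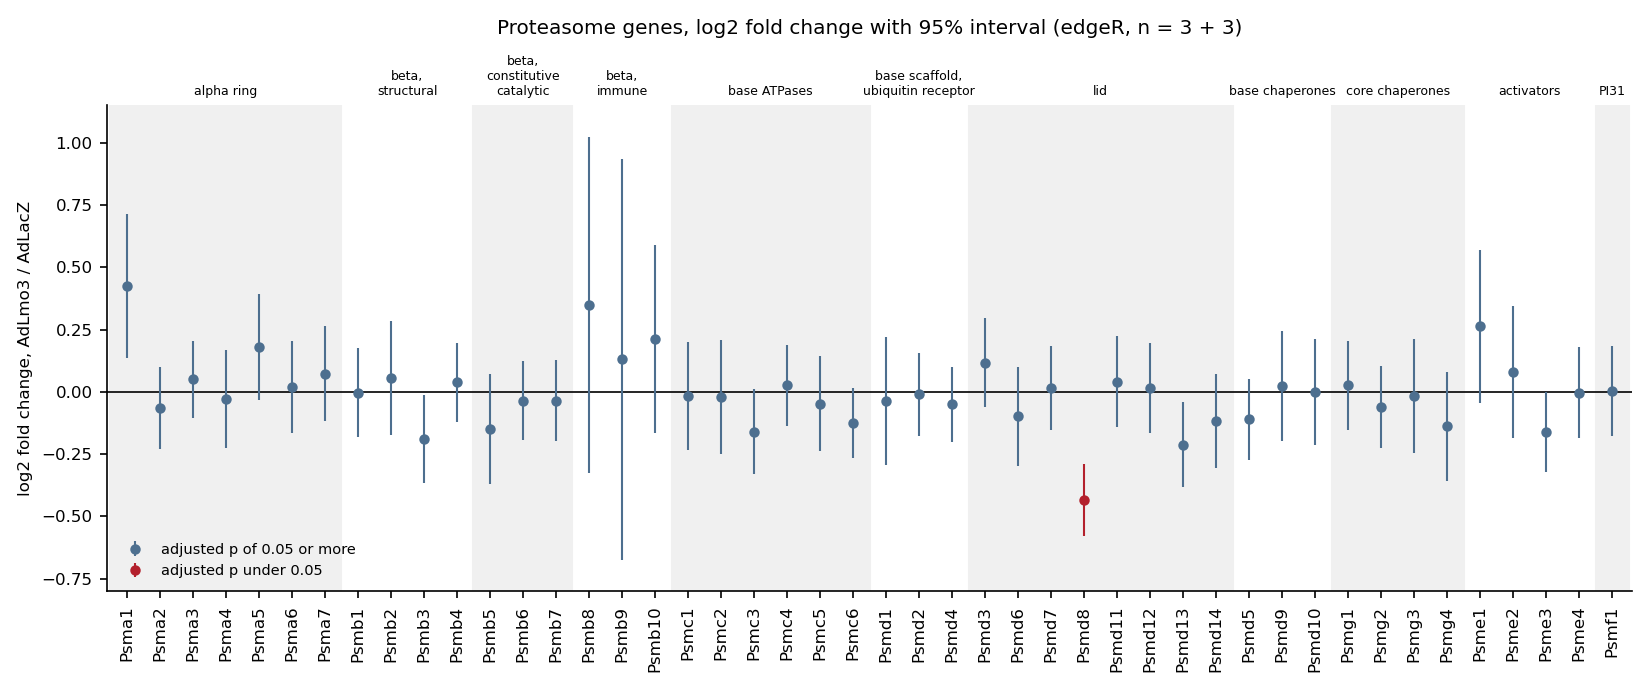
Log2 fold change of Ad*Lmo3* over AdLacZ (y axis) for the 46 tested proteasome genes (x axis, shaded by role), as points with 95% intervals from edgeR, n = 3 libraries per group. *Psmd8*, at -0.44, is the point drawn in red with an adjusted p-value under 0.05, *Psma1* is the highest at 0.42, and the 3 immune subunits have the widest intervals.

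*Psmd8* and *Psma1* stood at the ends of the range of fold changes, and the DNA just upstream of their starts is therefore shown. The sequences come from RefSeq (GRCm38.p6), run 5′ to 3′ on the gene's strand and stop before the first base annotated as exon. Capitals mark CCAAT, read on either strand. In *Psma1* it occurred 2 times, and in *Psmd8* it was not found. Whether CCAAT goes with the direction of a change was not tested. CCAAT was present in 37.4% of the 32851 mouse promoter windows, which span 250 bases before to 50 after a start, and in 14 of the 40 proteasome genes with a window.
Psmd8, chr7:29180702-29180923, minus strand: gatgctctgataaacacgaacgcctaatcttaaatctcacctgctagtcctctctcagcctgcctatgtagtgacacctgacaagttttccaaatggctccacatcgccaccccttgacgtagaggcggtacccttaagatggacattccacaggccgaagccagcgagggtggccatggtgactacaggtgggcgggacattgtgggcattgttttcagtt
Psma1, chr7:114276119-114276366, minus strand: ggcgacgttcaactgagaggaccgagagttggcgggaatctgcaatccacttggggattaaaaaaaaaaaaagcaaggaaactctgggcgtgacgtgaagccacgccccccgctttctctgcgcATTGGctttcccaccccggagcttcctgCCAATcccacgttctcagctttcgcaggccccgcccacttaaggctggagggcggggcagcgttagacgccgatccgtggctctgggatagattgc

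The lid holds scaffold subunits and the enzyme that clips off ubiquitin chains. *Psmd8* (Rpn12), which is built into the lid at the last step of its assembly, lies on chr7:29174188-29180701 (GRCm38). Its level was 175, 187 and 184 CPM in AdLacZ replicates 1, 2 and 3, and 139.6, 131 and 133 CPM in Ad*Lmo3* replicates 1, 2 and 3. The groups were apart, with 182 ± 5.78 CPM against 135 ± 4.55 CPM (SD, n = 3 each). On the log2 scale the difference was -0.44 (standard error 0.063, 95% interval -0.58 to -0.29, adjusted p = 0.0115, edgeR). Without AdLacZ replicate 3 the adjusted p-value was 0.0711, and without Ad*Lmo3* replicate 2 it was 0.0673, with log2 fold changes of -0.43 and -0.42. No stretch of read length in its exons was shared with another gene and no other annotated exon overlapped them.

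The other 7 lid genes did not pass the test, and their log2 fold changes ran from -0.21 to 0.12. *Psmd3*, a scaffold subunit, was the highest of them. Its values were 174, 156 and 158 CPM in AdLacZ and 163, 178 and 187 CPM in Ad*Lmo3*, and the groups overlapped (log2 fold change 0.12, adjusted p = 0.455). *Psmd13* (Rpn9) had 108, 93.3 and 108 CPM in AdLacZ and 87.1, 89.5 and 90.4 CPM in Ad*Lmo3*. Every Ad*Lmo3* library was below every AdLacZ library, yet the log2 fold change of -0.21 had an adjusted p-value of 0.154. Exons of *Sirt3* cover 10.1% of its exon bases, and reads there cannot be told apart unless strand was used in the counting, which is not given. *Psmd14* (Rpn11), the enzyme that removes ubiquitin, had a log2 fold change of -0.12 (adjusted p = 0.477). *Psmd6*, *Psmd7*, *Psmd11* and *Psmd12* lay between -0.10 and 0.04.

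The alpha ring forms the gate of the core, and its 7 tested genes had log2 fold changes from -0.07 to 0.42. *Psma1*, on chr7:114264606-114276118, had 392, 492 and 496 CPM in AdLacZ. In Ad*Lmo3* it had 526, 679 and 646 CPM, so that the groups did not overlap. Its log2 fold change was 0.42 (standard error 0.125, 95% interval 0.14 to 0.71, adjusted p = 0.105), which missed the threshold. DESeq2 gave an adjusted p-value of 0.0102, so that the call was not the same in every fit. *Psma2* was at the lower end of the ring with a log2 fold change of -0.07 (adjusted p = 0.669). It had 113, 103 and 116 CPM in AdLacZ and 100.2, 105 and 112 CPM in Ad*Lmo3*. *Psma5* followed *Psma1* with 0.18 (adjusted p = 0.325), but 35.2% of its stretches of read length occur in other loci, mostly processed copies, and its level is uncertain.

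Between the alpha rings lie the beta rings, in which *Psmb1*, *Psmb2*, *Psmb3* and *Psmb4* are structural. None of them passed. *Psmb3* had 81.4, 74.3 and 76.5 CPM in AdLacZ and 63.1, 66.5 and 74.3 CPM in Ad*Lmo3*. The lowest control and the highest Ad*Lmo3* library nearly touched, and the log2 fold change was -0.19 (adjusted p = 0.210). *Psmb2* had 81.1, 71.2 and 79.8 CPM in AdLacZ and 72.2, 77.2 and 92.0 CPM in Ad*Lmo3* (log2 fold change 0.06, adjusted p = 0.803). *Psmb1* and *Psmb4* were at -0.0034 and 0.04.

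**Figure D2:**
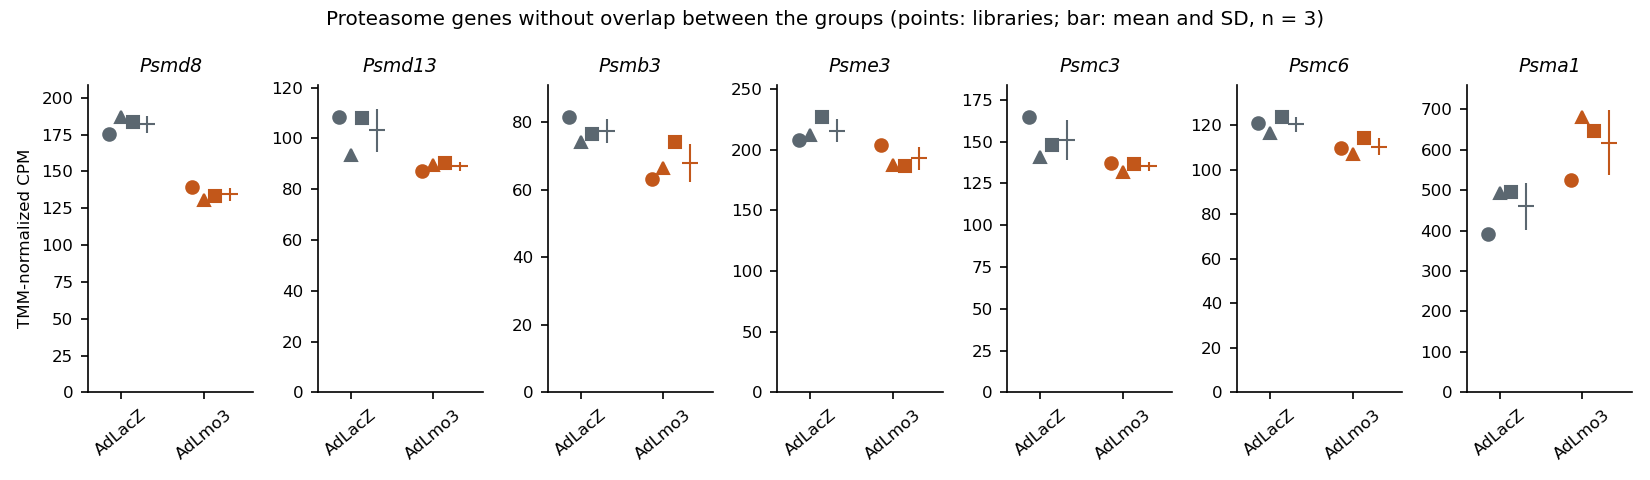
TMM-normalized CPM (y axis, from 0) in each AdLacZ and Ad*Lmo3* library for the 7 proteasome genes whose groups did not overlap (circles, triangles and squares for replicates 1, 2 and 3), with the mean and SD beside the points (n = 3 per group). *Psmd8* shows the widest gap among the lower genes, whereas in *Psmb3* the groups nearly meet at 74.3 CPM, and *Psma1* is the gene that is higher in Ad*Lmo3*.

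Groups without overlap were found in 7 of the 46 genes. *Psma1* was the 1 higher gene, where 13.3% of all tested genes did not overlap and were higher. The 6 lower genes were *Psmd8*, *Psmd13*, *Psmb3*, *Psmc3*, *Psmc6* and *Psme3*, where 13.2% of all tested genes did not overlap and were lower. For the lower genes the count of 6 in 46 was thus close to the share in all genes.

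The cutting subunits of the standard core differed little. *Psmb5* (beta 5), which cuts after hydrophobic residues, had 16.5, 14.2 and 15.4 CPM in AdLacZ and 14.1, 12.8 and 14.6 CPM in Ad*Lmo3*. The groups overlapped, with a log2 fold change of -0.15 (95% interval -0.37 to 0.07, adjusted p = 0.433). *Psmb6* (beta 1), which cuts after acidic residues, had 161, 152 and 154 CPM in AdLacZ and 144, 162 and 150.05 CPM in Ad*Lmo3*. *Psmb7* (beta 2), which cuts after basic residues, had 198, 184 and 189 CPM against 173, 191 and 193 CPM. Both had a log2 fold change of -0.04, with adjusted p-values of 0.824 and 0.829. The level of *Psmb5* is uncertain, because 36.8% of its stretches of read length also occur in the copy *Gm3375* or in *Mir686*.

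Their immune counterparts varied more between the libraries of a group than between the groups. *Psmb8* (beta 5i) had 74.2, 53.5 and 80.2 CPM in AdLacZ. In Ad*Lmo3* replicates 1, 2 and 3 it had 49.5, 93.0 and 123 CPM, so that the group held both the lowest and the highest library. The log2 fold change was 0.35 (standard error 0.293, 95% interval -0.33 to 1.02, adjusted p = 0.567). *Psmb9* (beta 1i) had 29.96, 26.7 and 34.7 CPM in AdLacZ and 15.3, 34.8 and 50.3 CPM in Ad*Lmo3*. Its log2 fold change was 0.13 (95% interval -0.67 to 0.94, adjusted p = 0.882), with -0.28 when Ad*Lmo3* replicate 3 was left out and 0.48 when replicate 1 was left out. *Psmb10* (beta 2i) had 83.3, 67.5 and 79.6 CPM in AdLacZ and 70.3, 83.5 and 113 CPM in Ad*Lmo3* (log2 fold change 0.21, 95% interval -0.17 to 0.59, adjusted p = 0.529). Leaving out 1 library at a time moved *Psmb8* between 0.04 (without Ad*Lmo3* replicate 3) and 0.64 (without replicate 1), and *Psmb10* between 0.0024 and 0.36. The 95% intervals of the 3 genes leave room for a rise or a fall, and a difference was not detectable at this spread.

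**Figure D3:**
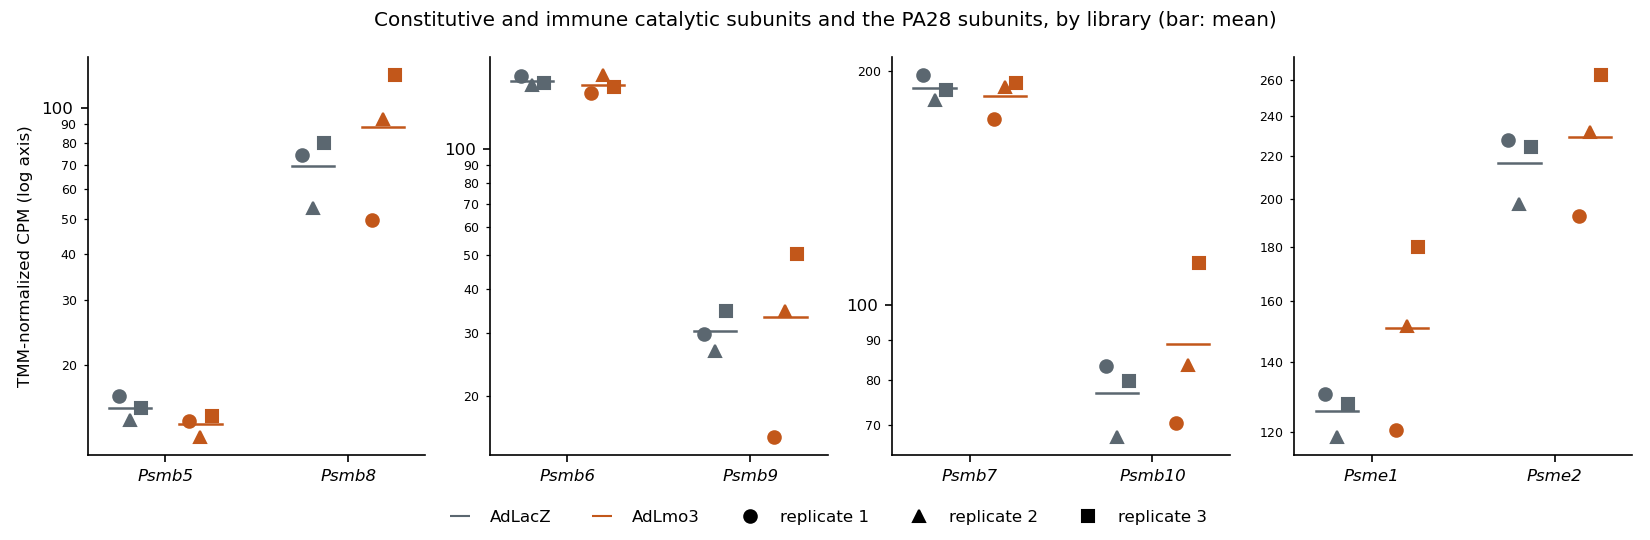
TMM-normalized CPM (y axis, log scale, a separate range in each panel) of the 3 pairs of standard and immune cutting subunits and of *Psme1* and *Psme2* in each library, with the group mean as a bar. Within Ad*Lmo3*, replicate 3 is the highest and replicate 1 the lowest for *Psmb8*, *Psmb9*, *Psmb10*, *Psme1* and *Psme2*. The libraries lie closer together for *Psmb5*, *Psmb6* and *Psmb7*, of which *Psmb7* has the same order.

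Within each library, the counts of an immune subunit, not corrected for gene length, were set against those of the standard subunit whose place it takes. The count ratio of *Psmb8* to *Psmb5* was 4.50, 3.76 and 5.22 in AdLacZ and 3.50, 7.25 and 8.40 in Ad*Lmo3*. On the log2 scale the ratio was 0.42 higher in Ad*Lmo3*, with a p of 0.4 (exact permutation test, two-sided). For *Psmb9* to *Psmb6* the ratio was 0.186, 0.176 and 0.225 in AdLacZ and 0.106, 0.215 and 0.336 in Ad*Lmo3*, a log2 difference of 0.02 (exact p = 1). *Psmb10* to *Psmb7* gave 0.421, 0.368 and 0.420 in AdLacZ and 0.405, 0.438 and 0.587 in Ad*Lmo3*, a log2 difference of 0.23 (exact p = 0.3). Adjusted over the 3 ratios (Benjamini-Hochberg), the exact p-values were 0.6, 1 and 0.6. With 3 against 3 libraries this test cannot give a p below 0.1. The 3 ratios were in every case spread wider in Ad*Lmo3* than in AdLacZ, with SDs of the log2 ratio of 0.676, 0.836 and 0.282 against 0.236, 0.188 and 0.112.

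The spread of the immune subunits among the Ad*Lmo3* libraries was the widest of all proteasome genes. The SD of log2 CPM was 0.665 for *Psmb8*, 0.862 for *Psmb9* and 0.347 for *Psmb10*, whereas the median over the 46 genes was 0.088 and over all tested genes 0.108. Replicate 3 held 2.47, 3.29 and 1.61 times the level of replicate 1. *Psme1* and *Psme2*, which together form the interferon-induced activator PA28, came next with 1.495 and 1.36 times.

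The same libraries were set apart in genes that feed peptides to MHC class I or carry interferon signals. *Tap1*, a peptide transporter, had 116, 127 and 137 CPM in AdLacZ and 71.8, 124 and 202 CPM in Ad*Lmo3* (log2 fold change 0.06, adjusted p = 0.937). *Irf1*, a transcription factor induced by interferon, varied less, with 104, 125 and 117 CPM against 99.8, 125 and 140.1 CPM (log2 fold change 0.08, adjusted p = 0.793). None of the 7 genes of this list differed between the groups at an adjusted p-value under 0.05 in edgeR (4.28% of all tested genes). At an unadjusted p under 0.05 there were 0 (20.6% of all tested genes), and DESeq2 called 0 (8.69%). All 7 had replicate 3 as the highest and replicate 1 as the lowest Ad*Lmo3* library. Among all tested genes 20.9% were ordered so, and among the proteasome genes 22 of 46, or 17 of 41 without the immune subunits, *Psme1* and *Psme2*. Ad*Lmo3* replicate 3 also had the fewest counts on genes (28035639) and the highest share of reads on no gene (8.94%) of all libraries. Ad*Lmo3* replicate 1 had the lowest such share (7.15%), with 37634348 counts on genes. What set these libraries apart was not tested.

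**Figure D4:**
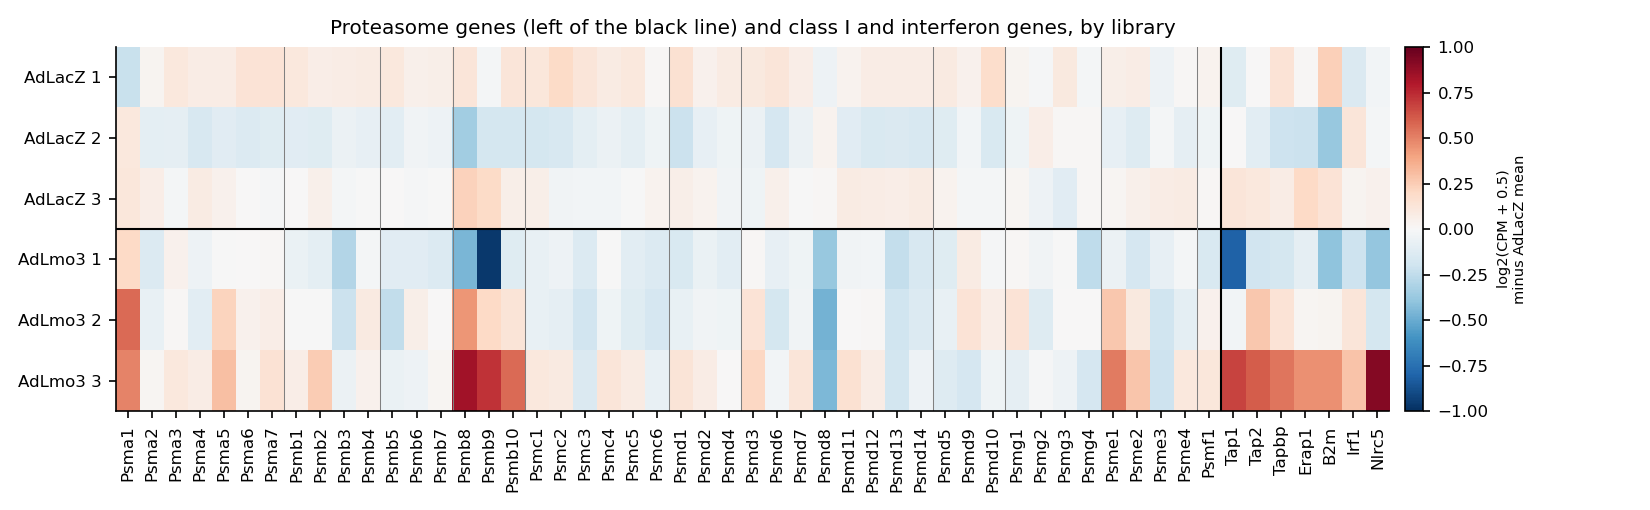
Log2(CPM + 0.5) minus the mean of the AdLacZ libraries for the 46 proteasome genes and 7 class I and interferon genes (columns, grey lines between roles) in the 6 libraries (rows), with colours ending at -1 and 1. For *Psmb8*, *Psmb9* and *Tap1*, Ad*Lmo3* replicate 3 is dark red and replicate 1 is blue, darker in *Psmb9* and *Tap1* than in *Psmb8*. Most other columns are pale, and *Psmd8* is blue in all 3 Ad*Lmo3* libraries.

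The genes of the immunoproteasome lie beside class I genes. *Psmb9* (chr17:34181987-34187764) and *Tap1* (chr17:34187553-34197225) overlap at their starts, and *Psmb8* (chr17:34197721-34201454) begins 495 bp after *Tap1*, and reads from the exons that *Psmb9* and *Tap1* share cannot be told apart without strand. *Tap2* begins 2072 bp beyond *Psmb8*. *Psmb10* lies apart from them on chr8:105935735-105938444. *Psme1* and *Psme2* are 5911 bp apart on chromosome 14. The gene models of *Psmb8* and *Gm20496* share 14.7% of the *Psmb8* exon bases, and 22.9% of the stretches of read length in *Psme2* occur in its copy *Psme2b*.

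Windows around gene starts were searched for the core of the interferon response element (GAAA, any 2 bases and GAAA), the STAT palindrome (TTCNNNGAA) and the core of the antioxidant response element (TGACNNNGC), which *Nfe2l1* and *Nfe2l2* can bind, on both strands. A match to these short motifs is a description and not a binding site. The 30 bases around a match are given for the immune genes *Psmb8* and *Psme1* and for the standard cutting subunits *Psmb5* and *Psmb6*, with the motif in capitals (GRCm38.p6, RefSeq, 5′ to 3′ on the gene's strand).
Psmb8, chr17:34198087-34198116, plus strand: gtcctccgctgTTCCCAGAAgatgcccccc
Psme1, chr14:55578493-55578522, plus strand: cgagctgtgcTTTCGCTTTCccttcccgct
Psmb5, chr14:54618024-54618053, minus strand: acgtgaagttgTGACGTCGCggcgttgcca
Psmb6, chr11:70525337-70525366, plus strand: actaaagagagTGACGGAGCgctttacgac

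The STAT palindrome was present in 8.30% of all windows and in 3 of the 40 proteasome genes (*Psmb8*, *Psmd2* and *Psmg1*). In *Psmb8* it began 97 bases before the RefSeq start of the window, which lies 474 bp inside the GENCODE gene given above, so that the match is within that gene model. The interferon element was present in 3.44% of all windows and in 5 proteasome genes (*Psme1*, *Psmb3*, *Psmd4*, *Psmd9* and *Psmg4*). In *Psme1* the match began 9 bases after the RefSeq start, which lies 371 bp inside the GENCODE gene. The antioxidant element was present in 12.4% of all windows and in 6 proteasome genes (*Psmb5*, *Psmb6*, *Psmc6*, *Psmd9*, *Psmd12* and *Psme4*). None of these 6 differed at an adjusted p-value under 0.05 in edgeR. Among all tested genes 4.28% did, so that this count was close to the background share. *Psmd8* and *Psmb10* held none of the 4 motifs in their windows. *Psmb9* and *Psme2* held neither the interferon element nor the STAT palindrome.

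The base of the cap threads substrates into the core with 6 ATPases. None of them passed, and 5 of 6 had a log2 fold change below 0. *Psmc3* (Rpt5) was the lowest, with 164, 141 and 148 CPM in AdLacZ and 137, 132 and 136 CPM in Ad*Lmo3*. The groups did not overlap (log2 fold change -0.16, adjusted p = 0.270). *Psmc6* (Rpt4) did not overlap either, with 121, 117 and 124 CPM against 109.6, 107 and 115 CPM (log2 fold change -0.12, adjusted p = 0.300). *Psmc4* was the highest, with 84.8, 76.7 and 78.5 CPM in AdLacZ and 79.6, 77.7 and 87.0 CPM in Ad*Lmo3* (log2 fold change 0.03, adjusted p = 0.884).

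The scaffold and the ubiquitin receptor of the base were at the control level. *Psmd2* (Rpn1), a docking platform for ubiquitin shuttles, had 339.7, 312 and 338 CPM in AdLacZ and 314, 321 and 347 CPM in Ad*Lmo3* (log2 fold change -0.01, adjusted p = 0.961). *Psmd4* (Rpn10), which binds ubiquitin chains, had 122, 113 and 113 CPM against 108, 112 and 116 CPM (log2 fold change -0.05, adjusted p = 0.731). *Psmd1* (Rpn2) was at -0.04 (adjusted p = 0.899). In all 3 genes the groups overlapped.

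Activators open the gate in place of the cap. *Psme1* (PA28 alpha) had 130.5, 119 and 128 CPM in AdLacZ and 121, 151 and 180.3 CPM in Ad*Lmo3*. The groups overlapped through Ad*Lmo3* replicate 1, and the log2 fold change was 0.26 (95% interval -0.04 to 0.57, adjusted p = 0.315). It ran from 0.11 to 0.40 when 1 library was left out, lowest without Ad*Lmo3* replicate 3. *Psme2* (PA28 beta) had 228, 198 and 224 CPM in AdLacZ and 193, 232 and 263 CPM in Ad*Lmo3* (log2 fold change 0.08, adjusted p = 0.758). *Psme3* (PA28 gamma), the nuclear form, had 208, 212 and 226 CPM in AdLacZ and 204, 187 and 187 CPM in Ad*Lmo3*. All Ad*Lmo3* libraries were below the controls, with a log2 fold change of -0.16 and an adjusted p-value of 0.236. *Psme4* (PA200) was at -0.0030 (adjusted p = 0.989), and *Psmf1* (PI31), which binds the core, at 0.0021 (adjusted p = 0.993).

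Chaperones that build the particle were near the control. Those of the base are *Psmd5*, *Psmd9* and *Psmd10*. *Psmd5* had 92.0, 79.4 and 89.0 CPM in AdLacZ and 79.4, 82.3 and 79.3 CPM in Ad*Lmo3* (log2 fold change -0.11, adjusted p = 0.427). *Psmd9* had 21.4, 20.3 and 20.5 CPM against 21.9, 22.8 and 18.4 CPM (0.02, adjusted p = 0.930). Those of the core are *Psmg1* to *Psmg4*, which pair the alpha subunits. *Psmg4* was the lowest of them with 14.6, 15.0 and 15.0 CPM in AdLacZ and 12.4, 14.9 and 13.2 CPM in Ad*Lmo3* (log2 fold change -0.14, adjusted p = 0.469). *Psmg1* had 27.0, 25.8 and 26.9 CPM against 26.8, 29.2 and 25.0 CPM (log2 fold change 0.03, adjusted p = 0.899). No chaperone passed the test, and the log2 fold changes of *Psmd10*, *Psmg2* and *Psmg3* lay between -0.06 and -0.0011.

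Levels were compared between genes per kilobase of annotated exon in AdLacZ. The median of the 46 genes was 36.6 CPM per kb, or 58.0 CPM per kb with the length of the longest transcript. *Psma1* (156 ± 19.8), *Psma6* (131 ± 12.4) and *Psme2* (123 ± 9.19 CPM per kb, SD, n = 3) were highest, and each of them overlapped the next within 1 SD. Per kilobase of the longest transcript, *Psma1* was again the highest with 383 CPM per kb, followed by *Psme2* with 225 and *Psmb6* with 161 CPM per kb. At the lower end were *Psmd9* (2.86 ± 0.080), *Psmg3* (3.49 ± 0.266), *Psmf1* (8.19 ± 0.227) and *Psmb9* (8.32 ± 1.10 CPM per kb), where *Psmf1* and *Psmb9* did not differ beyond their spread. Per kilobase of the longest transcript the order of the lowest turned, with 4.21 CPM per kb for *Psmg3* and 7.88 CPM per kb for *Psmd9*, and 25.5% of the exon bases of *Psmd9* overlap *Gm26745*. The standard cutting subunits *Psmb6* and *Psmb7* were at 83.2 and 55.6 CPM per kb, and *Psmb10*, *Psmb8* and *Psmb9* at 45.0, 20.5 and 8.32 CPM per kb. *Psmb5* (17.1 ± 1.26) and *Psma3* (16.4 ± 1.11 CPM per kb) were the lowest standard core subunits and overlapped within 1 SD, and per longest transcript *Psmb5* (17.1) was below *Psma3* (22.4 CPM per kb). The uncertainty of *Psmb5* given above holds here too. The level of *Psma3* is uncertain as well, because 14.35% of its stretches of read length also occur in other genes.

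**Figure D5:**
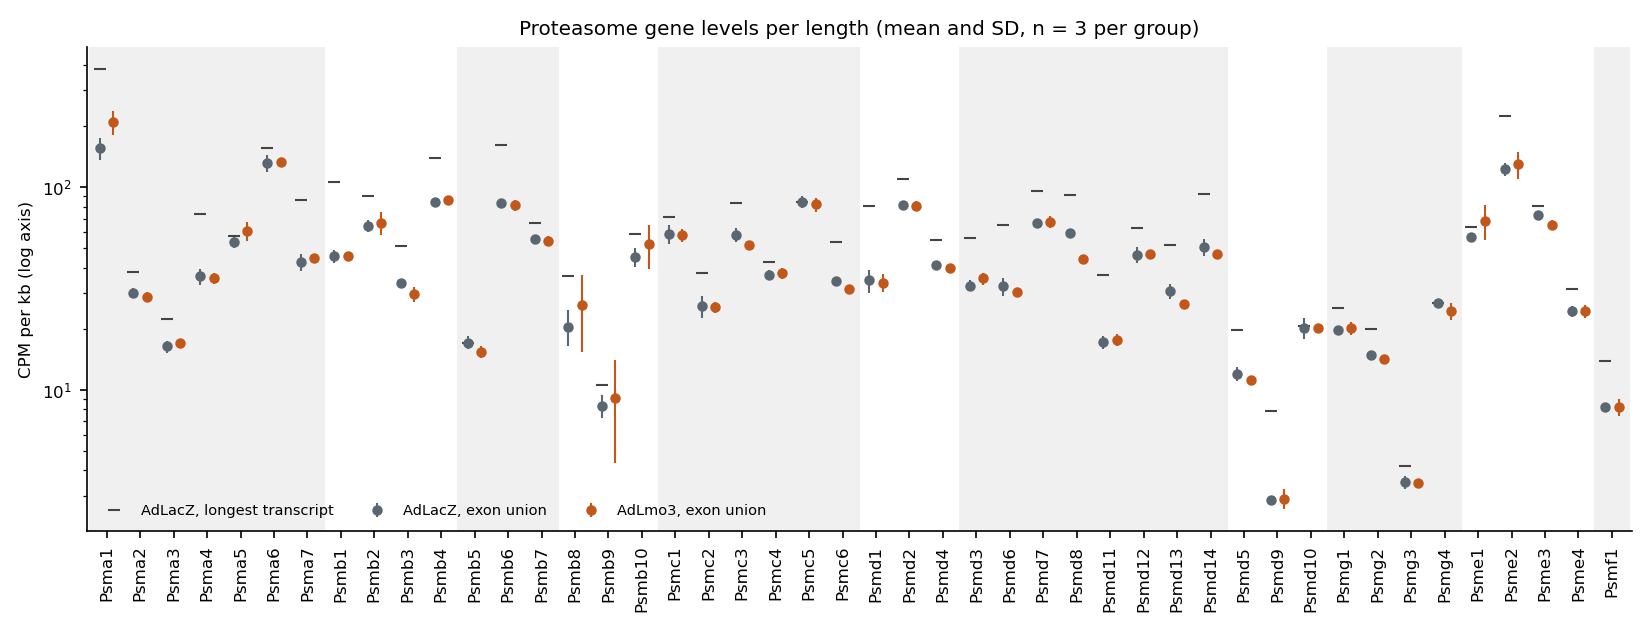
Level of each tested proteasome gene per kilobase of annotated exon (y axis, CPM per kb, log scale) in AdLacZ and Ad*Lmo3*, as mean and SD of 3 libraries, with dashes for the AdLacZ level per kilobase of the longest transcript. *Psma1* is the highest at 156 CPM per kb in AdLacZ and *Psmd9* the lowest at 2.86 CPM per kb, and the wide bars of *Psmb8* and *Psmb9* in Ad*Lmo3* stand out.

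Genes that work with the proteasome under other names were read from the same fit. None of 31 passed in edgeR, where 4.28% of all tested genes did. At an unadjusted p under 0.05 there were 3 (20.6% of all tested genes), and DESeq2 called 1, *Nfe2l1* (8.69% of all tested genes). The median log2 fold change was -0.03. *Nfe2l1*, the factor that raises proteasome genes when the particle is short, had 1234, 1244 and 1348 CPM in AdLacZ and 1052, 1108 and 1012 CPM in Ad*Lmo3*. The groups did not overlap, and on the log2 scale the difference was -0.27 (standard error 0.076, adjusted p = 0.0919), while DESeq2 gave an adjusted p-value of 0.0102. Its relative *Nfe2l2* had 122, 128 and 134 CPM against 128, 111 and 109.9 CPM (log2 fold change -0.14, adjusted p = 0.392). *Pomp*, which matures the core, had 104, 74.8 and 85.2 CPM in AdLacZ and 83.7, 79.5 and 94.8 CPM in Ad*Lmo3* (log2 fold change -0.03, adjusted p = 0.922). *Adrm1* (Rpn13), a ubiquitin receptor, had 69.8, 66.4 and 62.3 CPM against 73.5, 66.1 and 68.3 CPM (log2 fold change 0.07, adjusted p = 0.649). Its level is uncertain, because 23.6% of its stretches of read length also occur in *Gm9774*. Of the 31 genes, 0 were higher without overlap and 7, *Nfe2l1* among them, were lower without overlap, where the shares of all tested genes were 13.3% and 13.2%.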

How the data were processed

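RNA of 3T3-L1 adipocytes (6 libraries, 3 AdLacZ and 3 Ad*Lmo3*) was sequenced by the authors as single reads of 75 bp with a NEBNext Ultra II RNA kit. Per the labels, the processing used bcl2fastq, STAR 2.5.0b and mm10, and DESeq2 1.6.3 for the study's own tests. The authors deposited raw counts of reads per gene symbol, 1 table per library; the counting program, its strand setting and the annotation are not given in the sources used here. Reads on no gene (7.15% to 8.94%) or on several genes (0.476% to 0.543%) were left out. The methods name a virus for each group and do not say whether the replicates were separate infections or cultures. Replicates of a group differed by more than sampling noise (chi-square per degree of freedom 24 to 64).

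The model fitted was that of edgeR 4.0.16 under R 4.3.3 (genes kept by filterByExpr, TMM scaling, quasi-likelihood test without replicate block, Benjamini-Hochberg adjustment over 12766 genes, threshold 0.05), and CPM are TMM-normalized. The factors ran from 0.964 to 1.04. The depths put 3 counts, the smallest number taken as detectable, at 0.0783 to 0.107 CPM, for counting error only. Count ratios were tested by exact permutation. Alternatives were DESeq2 1.42.0, limma 3.58.1 (voom), other scalings and count filters, the replicate block and leaving out each library. On simulated counts of 12684 genes, edgeR recovered 89% of the genes changed by 1 and 100% of those changed by 2 on the log2 scale, with 3.59% false calls. Smaller changes, such as those of the proteasome genes, were not planted. Counts were drawn with the typical spread for a gene's level, not its own. The rates therefore do not apply to small changes or to widely spread genes such as the immune subunits. Gene positions, exon lengths and the share of 75-base stretches found in other genes come from GRCm38 with GENCODE vM21, and promoter windows from RefSeq, where 40 of 48 genes matched.

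Values per library are given for the immune subunits and their counterparts, for genes past the threshold, for the highest and lowest fold change of each role, for 6 companion genes set by name, and for genes picked after their values were seen (*Psmd13*, *Psmc6*, *Psme2*, genes without overlap or beside the immune subunits). The proteasome genes, companion lists and markers were chosen with earlier results of these data known. Paaf1 was not analysed here, and 3 genes of the companion and marker lists are not reported.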

Additional observations from a re-analysis of the deposited data

How the results depend on the processing

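The 22 proteasome and 6 companion genes named by rule gave 392 values under the alternatives. Of these, 359 kept their direction and their side of the threshold, 27 turned direction, 4 passed the threshold and 2 lost it. Those that turned had small or widely spread fold changes. With library totals in place of TMM, the log2 fold changes were -0.019 for *Psmb2*, -0.048 for *Psmc4*, -0.050 for *Psmd9*, -0.048 for *Psmg1*, -0.0069 for *Adrm1* and -0.014 for *Tap1*, at a median over all genes of -0.07. By limma voom *Psmb9* was at -0.052 and *Tap1* at -0.060.

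Leaving out 1 library at a time, log2 fold changes ran from -0.28 to 0.48 for *Psmb9*, -0.083 to 0.0070 for *Psmb6*, -0.063 to 0.017 for *Psmb7*, -0.050 to 0.13 for *Psmb2*, -0.023 to 0.070 for *Psmc4*, -0.053 to 0.023 for *Psmd2*, -0.039 to 0.11 for *Psmd9*, -0.034 to 0.078 for *Psmg1*, -0.14 to 0.10 for *Pomp*, -0.37 to 0.36 for *Tap1* and -0.037 to 0.20 for *Irf1*. The difference of the *Psmb9* to *Psmb6* ratio ran from -0.36 to 0.47, that of *Psmb8* to *Psmb5* from 0.18 to 0.81, and that of *Psmb10* to *Psmb7* from 0.07 to 0.33.

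Over all genes, the 547 calls became 1110 with DESeq2 (672 higher, 438 lower), and 77 to 501 without 1 library, the fewest without AdLacZ replicate 3. With library totals the split of 346 higher and 201 lower became 266 higher and 501 lower. The 1 proteasome gene called became 2 with DESeq2 (*Psma1* and *Psmd8*), and 0 to 1 without 1 library. Among companions, 1 gene (*Nfe2l1*) was called with DESeq2 and with library totals (adjusted p = 0.0412) and 0 otherwise. The median level per length moved from 36.6 to 58.0 CPM per kb with the longest transcript.

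Libraries with the same replicate number deviated together by correlations of 0.0508, 0.225 and 0.234. Each was positive, so a pairing by number is not excluded, but the main fit did not use one. With the replicate block 2 proteasome genes were called (*Psma1*, adjusted p = 0.0277, and *Psmd8*, adjusted p = 0.0268), 498 genes were called in all, and *Tap1* was at -0.053. With 3 libraries per group, the 95% interval of the log2 fold change in the main fit was -0.33 to 1.02 for *Psmb8*. It was -0.67 to 0.94 for *Psmb9* and -0.17 to 0.59 for *Psmb10*. Changes in the immune subunits within these intervals, and not only small ones, are beyond what these data resolve.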
